A study of Mus musculus with 7 samples.

Results

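Heat shock proteins and the chaperones that work with them were described in RNA-seq libraries of mouse sarcoma cells. The set was a list of 44 named genes out of 35727 genes in the table of counts. The genes were listed by name and not by a measured value, but the list was drawn up with earlier results of these data known. It held 2 heat shock transcription factors, 10 genes of the HSP70/HSP110 family, 2 cytosolic HSP90 genes, 6 small heat shock proteins and 4 mitochondrial chaperones. It also held 7 J-domain proteins, 6 nucleotide exchange factors and HSP90 cochaperones, and 7 subunits of the chaperonin TRiC/CCT. Hspa9, Hspd1, Hspe1 and Trap1 act in mitochondria and Hspa13 is tied to the endoplasmic reticulum, so the list was not purely cytosolic.

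The libraries were polyA RNA of tumour cells that carried red fluorescent protein (RFP) and were sorted by it out of mouse tumours. In 3 libraries the label was p53 KO Vgll3 OE, a p53-knockout line given a retrovirus for Vgll3, a cofactor of TEAD transcription factors. In 4 libraries the label was p53 KO Ccne1 OE, a p53-knockout line given a retrovirus for Ccne1, the cyclin that drives entry into S phase. Both lines started from mesenchymal stem cells of female C57/Bl6 p53KO mice and went 2 times through female wild-type recipients under the skin. They were grown briefly in DMEM with FBS and then transplanted to form the sampled tumours, so all 7 libraries shared the p53 knockout. Each label names 1 line, so the vector's gene and any other difference between the lines cannot be told apart. The labels do not say whether each library came from its own tumour or animal, and the p-values measure only the spread between libraries.

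Chaperones keep other proteins folded. On heat or other protein damage, the factor Hsf1 binds repeats of a short DNA unit, the heat shock element, in front of genes such as Hspa1a, Hspa1b, Dnajb1 and Hsph1 and turns them on. Relatives such as Hspa8 and Hsp90ab1 are made all the time. HSP70 proteins bind unfolded stretches under the guidance of J-domain partners and release them with the help of nucleotide exchange factors. HSP90 completes the folding of kinases and receptors, small heat shock proteins hold unfolded proteins without ATP, and TRiC/CCT is a double ring of different subunits that folds actin and tubulin.

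Values are CPM, counts scaled by library size with TMM. Fold changes put the Vgll3-labelled group over the Ccne1-labelled group and come from 1 edgeR quasi-likelihood fit over all genes. A gene was called at an adjusted p under 0.05. Library totals were 26433220 to 47504434 counts in the Vgll3-labelled group and 21725890 to 53610300 in the Ccne1-labelled group. The biological coefficient of variation was 20.7%. Vgll3 itself was at 285, 255 and 216 CPM in Vgll3-labelled libraries, against 37.9, 54.3, 54.5 and 56.2 CPM in Ccne1-labelled ones, 4.96-fold higher. Ccne1 was at 12.7, 15.1 and 17.0 CPM in Vgll3-labelled libraries, against 6.73, 9.24, 18.3 and 16.7 CPM in Ccne1-labelled ones. It was not called (0.23 ± 0.34 on the log2 scale, with SE; edgeR adjusted p = 0.609), so the gene that names the Ccne1-labelled libraries was not shown to be higher in them, and every direction below is between the labelled groups. Trp53 was at 75.4, 66.9 and 69.9 CPM in Vgll3-labelled libraries, against 69.7, 66.7, 63.1 and 66.3 CPM in Ccne1-labelled ones, over the whole gene, which does not test a deletion of part of it.

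All 9 mesenchymal markers were tested, and they summed to 60704 to 70952 CPM in Vgll3-labelled libraries and 36285 to 41293 CPM in Ccne1-labelled ones. Of these markers 5 were called higher (Col1a1, Col1a2, Col3a1, Fn1 and Pdgfrb) and 3 lower (Vim, Pdgfra and S100a4). Vim averaged 4375 ± 238 CPM in Vgll3-labelled libraries and 13973 ± 1413 CPM in Ccne1-labelled ones (SD, n = 3 and n = 4). Sums for other cell types were lower. Macrophage markers summed to 12.9 to 24.4 CPM in Vgll3-labelled libraries and 59.7 to 80.5 CPM in Ccne1-labelled ones, with Cd14 the one of 7 tested that was called, as lower. The gap between these sums was mostly Cd14, at 6.39 ± 1.85 CPM in Vgll3-labelled libraries and 59.4 ± 7.89 CPM in Ccne1-labelled ones (SD, n = 3 and n = 4). The groups overlapped for every other macrophage marker tested. Endothelial markers summed to 33.1 to 227 CPM in Vgll3-labelled libraries and 48.1 to 132 CPM in Ccne1-labelled ones, highest in Vgll3-labelled replicate 3, with 0 of 7 called. That peak was mostly Pecam1, at 184 CPM in that library. Kdr was highest there too, while Cdh5, Vwf, Tek, Cldn5 and Emcn were highest in Ccne1-labelled replicate 1. Pericyte and smooth muscle markers summed to 146 to 173 CPM in Vgll3-labelled libraries and 458 to 551 CPM in Ccne1-labelled ones. That sum was mostly Cspg4, which was lower at 139.6 ± 10.2 CPM in Vgll3-labelled libraries and 514 ± 42.4 CPM in Ccne1-labelled ones, while 3 of the 5 tested, Rgs5, Notch3 and Des, were higher, with Rgs5 at 5.95 ± 1.89 CPM in Vgll3-labelled libraries and 0.543 ± 0.328 CPM in Ccne1-labelled ones (SD, n = 3 and n = 4). Markers of muscle fibres, lymphocytes, erythroid cells, adipocytes and keratinocytes each summed to at most 11.8 CPM in any library; of them, 2 of 3 tested erythroid markers and the tested adipocyte marker were lower. In bulk RNA, fewer cells of a type and less RNA per cell cannot be told apart, and the part of other cells in the results was not tested.

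Seen as a whole, the chaperone list did not move one way. Of 43 members tested, 11 were called higher and 13 lower in the Vgll3-labelled libraries, or 24 in all (55.8%), and 19 were not called. Over all 13740 genes tested, 51.9% were called, 25.1% as higher and 26.8% as lower, so the members' counts were near the background. The median log2 fold change was 0.02 for the members and 0.01 for all genes tested. The median absolute value was 0.34 for the members and 0.43 for all genes tested. Of the members, 4 (9.30%) were called and at least 2-fold different, against 16.7% of all genes tested. These were Hspa4l, Hspb1, Hspb7 and Cryab, and all were lower. The groups did not overlap for 23 members, 10 above and 13 below; the share over all genes tested was 55.7%.

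With upper-quartile scaling, 15 members were higher and 8 lower, so the balance of directions depends on the scaling; that scaling moved the median of all genes by 0.08 on the log2 scale. Without Vgll3-labelled replicate 3, which correlated least with its group (Pearson's r across genes of log2 CPM of 0.959 and 0.963, against 0.986 between the other libraries of the group), 12 members were higher and 11 lower. The summed level of all members was 16103, 13349 and 13251 CPM in Vgll3-labelled libraries and 13994, 15033, 14165 and 14120.1 CPM in Ccne1-labelled ones, which overlap. Hspb2, a small heat shock protein of muscle, was too low to test. It had 3, 1 and 2 counts in Vgll3-labelled libraries and 3, 6, 1 and 9 counts in Ccne1-labelled ones.

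**Figure D1:**
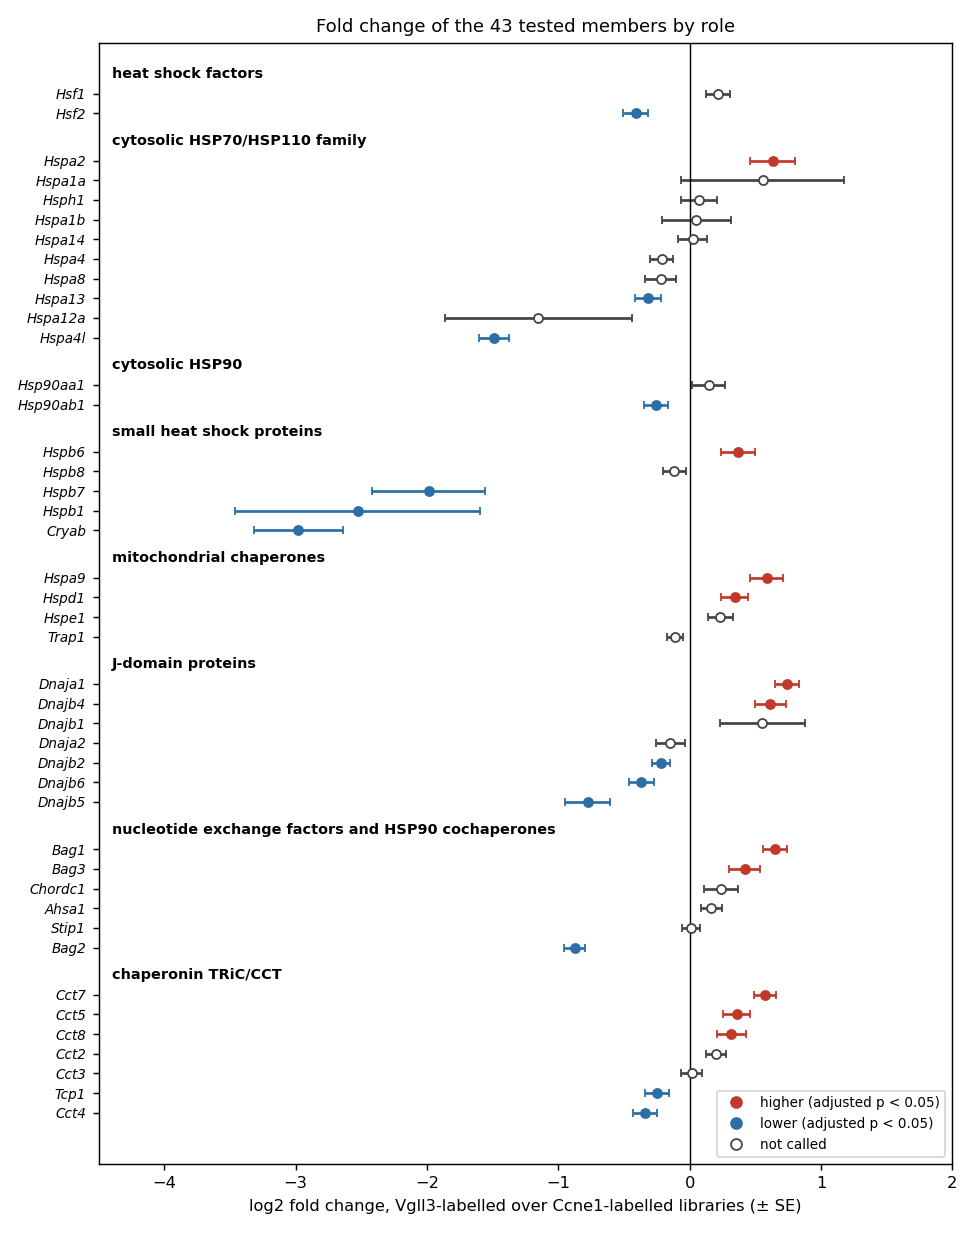
Log2 fold change with SE of the 43 tested members, Vgll3-labelled (n = 3) over Ccne1-labelled (n = 4) libraries, grouped by role. Filled points were called at an adjusted p under 0.05. Hspb7, Hspb1 and Cryab, at -1.99, -2.53 and -2.98, lie farthest from 0.

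The sequence in front of the members was searched for heat shock elements. The motifs were 2 units, GAANNTTC or TTCNNGAA, and 3 units, GAANNTTCNNGAA or TTCNNGAANNTTC, and each 3-unit motif contains both 2-unit ones. Each 2-unit motif is its own reverse complement and the 3-unit motifs are each other's, so both strands were covered. RefSeq sequences (GRCm38.p6) of the 250 bases before the RefSeq start were matched by symbol for 35 members and searched for 27025 genes in all. RefSeq and GENCODE place some starts differently, and for 22 of the 35 members at least 1 stretch searched reaches into the gene as GENCODE draws it. No entry was matched for Cryab, Hsf1, Hsp90aa1, Hspb2, Hspa9, Cct4, Hspa8, Hsp90ab1 and Hspa13. A 3-unit motif was in 3 of 35 members (8.57%) and in 0.514% of all genes. A 2-unit motif was in 12 of 35 members (34.3%) and in 14.5% of all genes. Hspd1 and Hspe1, which lie head to head, share 1 stretch and count as 2 of the 3. For Hspd1 this stretch lies before a RefSeq start 311 bases downstream of the GENCODE one, inside the gene as GENCODE draws it. It is not in the 250 bases before the Hspd1 RefSeq start that equals the GENCODE one. Of the 3 members with a 3-unit motif, 1 was called higher, 1 lower and 1 not called. Of 9 members with a 2-unit motif alone, 4 were higher, 1 lower and 4 not called. Of 23 members with neither, 5 were higher, 7 lower and 11 not called. These 23 include Dnajb1, named above as a target of Hsf1, and Bag3, which is inducible by heat. The search took exact matches in 250 bases only, so the lack of a match does not mean the lack of an element.

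The stretches printed here compare the inducible copies Hspa1a and Hspa1b, the 3-unit cases Hspe1 and Dnajb6, and 2-unit cases among called members (Hspb1, Dnaja1) and uncalled ones (Hsph1). Capitals mark the GAA and TTC units, 5′ to 3′ on the gene's strand.
Hspa1b, chr17:34959320-34959357, minus strand, 119 to 82 bases before the RefSeq start: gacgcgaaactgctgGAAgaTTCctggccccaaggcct
Hspa1a, chr17:34972238-34972275, minus strand, 119 to 82 bases before the RefSeq start: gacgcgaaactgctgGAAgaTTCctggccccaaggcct
Hspe1, chr1:55088053-55088082, plus strand, 95 to 66 bases before the RefSeq start: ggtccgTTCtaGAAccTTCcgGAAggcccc
Dnajb6, chr5:29735844-29735872, plus strand, 54 to 26 bases before the RefSeq start: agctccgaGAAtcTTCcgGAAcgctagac
Hspb1, chr5:135887787-135887844, plus strand, 132 to 75 bases before the RefSeq start: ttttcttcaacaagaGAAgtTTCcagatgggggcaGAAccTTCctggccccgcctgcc
Hsph1, chr5:149636351-149636380, minus strand, 65 to 36 bases before the RefSeq start: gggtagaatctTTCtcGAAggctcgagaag
Dnaja1, chr4:40722333-40722362, plus strand, 135 to 106 bases before the RefSeq start: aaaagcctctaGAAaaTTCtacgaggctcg
The Hspa1a and Hspa1b stretches are the same letter for letter. By the GENCODE starts, which set the gene coordinates given elsewhere, the Dnaja1 and Dnajb6 stretches and 26 of the 30 bases of the Hsph1 stretch lie inside the gene and overlap annotated exons, and the Hspe1 stretch lies inside the neighbouring Hspd1. A match describes these letters alone, and binding was not measured.

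Of the heat shock factors, Hsf2 was lower and Hsf1 was not called. Hsf1, the main switch of the heat shock response, was at 48.9, 55.9 and 63.7 CPM in Vgll3-labelled libraries, against 48.8, 48.3, 48.7 and 47.9 CPM in Ccne1-labelled ones. All 3 Vgll3-labelled libraries were above the Ccne1-labelled ones, yet Hsf1 missed the threshold (0.21 ± 0.09 on the log2 scale, with SE; edgeR adjusted p = 0.0737). Hsf2, a relative of Hsf1 with roles in development, was at 18.4, 18.0 and 22.8 CPM in Vgll3-labelled libraries, against 26.1, 25.8, 25.8 and 27.4 CPM in Ccne1-labelled ones. The groups did not overlap, and Hsf2 was 1.33-fold lower (-0.41 ± 0.10 on the log2 scale, with SE; edgeR adjusted p = 0.00690). Per transcript length, the ratio of Hsf2 to Hsf1 was 0.302, 0.258 and 0.286 in Vgll3-labelled libraries and 0.429, 0.427, 0.425 and 0.457 in Ccne1-labelled ones. Hsf2 was thus the smaller part of the pair in every library, and more so in each Vgll3-labelled one.

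In the HSP70/HSP110 family, 3 of 10 genes were called (30%, against 51.9% of all genes tested). Hspa2 was higher, and Hspa4l and Hspa13 were lower. Hspa4l, an HSP110-like exchange factor of HSP70 that is abundant in testis, was at 110.3, 84.5 and 114 CPM in Vgll3-labelled libraries, against 268, 301, 281 and 306 CPM in Ccne1-labelled ones. The groups were far apart, and Hspa4l was 2.81-fold lower (-1.49 ± 0.11 on the log2 scale, with SE; edgeR adjusted p = 1.94e-05). Its relative Hspa4 was not called (-0.21 ± 0.09 on the log2 scale, with SE; edgeR adjusted p = 0.0701). The ratio of Hspa4l to Hspa4 per transcript length was 0.218, 0.173 and 0.257 in Vgll3-labelled libraries and 0.537, 0.545, 0.505 and 0.497 in Ccne1-labelled ones, so the pair differed in balance as well as in level. Hspa2, an HSP70 known for its role in sperm, was at 7.16, 7.25 and 10.1 CPM in Vgll3-labelled libraries, against 5.73, 5.89, 4.89 and 4.54 CPM in Ccne1-labelled ones. These low levels did not overlap (0.63 ± 0.17 on the log2 scale, with SE; edgeR adjusted p = 0.0137). Hspa13, a microsomal HSP70 relative, was at 99.3, 97.3 and 75.4 CPM in Vgll3-labelled libraries, against 113, 115, 111 and 114 CPM in Ccne1-labelled ones, again with no overlap (-0.32 ± 0.10 on the log2 scale, with SE; edgeR adjusted p = 0.0226). Its call was lost under upper-quartile scaling and without Ccne1-labelled replicate 4, at edgeR adjusted p of 0.0505 to 0.0589. The Hspa13 call was also lost with the replicate number as a block, at edgeR adjusted p of 0.0706.

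The stress-inducible HSP70 genes were not called. Hspa1b was at 611, 359.9 and 718 CPM in Vgll3-labelled libraries, against 434, 701, 580.0 and 457 CPM in Ccne1-labelled ones. Vgll3-labelled replicate 2 was the lowest of the 7 and replicate 3 the highest, so the Vgll3-labelled range spans the other (0.05 ± 0.26 on the log2 scale, with SE; edgeR adjusted p = 0.881). The 95% interval of the log2 fold change ran from -0.56 to 0.67. Hspa1a was at 5.04, 4.99 and 22.8 CPM in Vgll3-labelled libraries, against 9.01, 9.93, 6.50 and 4.14 CPM in Ccne1-labelled ones, with Vgll3-labelled replicate 3 the highest (0.56 ± 0.62 on the log2 scale, with SE; edgeR adjusted p = 0.486). These genes are near-identical copies on chromosome 17. Their coding sequences, 1923 bases in Hspa1a and 1926 in Hspa1b, matched at 99.4% of aligned positions, with a shared run of 638 bases. A read estimate can be split between such copies, and their separate values are uncertain. Summed, they were at 616, 365 and 741 CPM in Vgll3-labelled libraries, against 443, 710.4, 587 and 461 CPM in Ccne1-labelled ones, which still overlap.

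Hspa8, the constitutive HSC70, was at 3213, 2523 and 2298 CPM in Vgll3-labelled libraries, against 3109.7, 3217, 3111 and 3046 CPM in Ccne1-labelled ones. Vgll3-labelled replicate 1 lay inside the Ccne1-labelled range, and Hspa8 was not called (-0.22 ± 0.12 on the log2 scale, with SE; edgeR adjusted p = 0.141). Scaled to the length of 1 transcript per gene, its level in CPM per kb was 1119 ± 199 in Vgll3-labelled libraries and 1304 ± 29.7 in Ccne1-labelled ones. Only Hsp90ab1 was as high per length, at 1102 ± 102 in Vgll3-labelled libraries and 1315 ± 48.3 in Ccne1-labelled ones (SD, n = 3 and n = 4), and the pair differed by less than the SD in each group. The low gene Hspa12a was at 0.214, 0.567 and 2.54 CPM in Vgll3-labelled libraries, against 2.59, 1.87, 2.94 and 2.36 CPM in Ccne1-labelled ones. It was not called in the edgeR fit of all libraries (-1.15 ± 0.71 on the log2 scale, with SE, edgeR adjusted p = 0.204). It was called in limma-voom and, at a log2 fold change of -2.70, without Vgll3-labelled replicate 3. Hspa14, a ribosome-linked HSP70, and Hsph1, an inducible HSP110, were not called, at log2 fold changes of 0.02 and 0.07.

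Of the cytosolic HSP90 genes, the constitutive one was lower and the inducible one was not called. Hsp90aa1, the heat-inducible form, was at 1527, 1071 and 1336 CPM in Vgll3-labelled libraries, against 1091, 1339, 1146 and 1170.1 CPM in Ccne1-labelled ones. The groups overlapped (0.14 ± 0.13 on the log2 scale, with SE; edgeR adjusted p = 0.367). Hsp90ab1, the constitutive form, was at 3060.4, 2709.5 and 2560.5 CPM in Vgll3-labelled libraries, against 3355, 3468, 3199 and 3237 CPM in Ccne1-labelled ones. It did not overlap and was 1.19-fold lower (-0.26 ± 0.09 on the log2 scale, with SE; edgeR adjusted p = 0.0379). Leaving aside the replicate block, that call was lost in 9 of 13 other settings, at adjusted p up to 0.117 in edgeR, under other scalings and without any one of 6 of the 7 libraries. Per transcript length, the ratio of Hsp90aa1 to Hsp90ab1 was 0.383, 0.304 and 0.401 in Vgll3-labelled libraries and 0.250, 0.297, 0.275 and 0.278 in Ccne1-labelled ones, which did not overlap.

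Small heat shock proteins held the 3 lowest log2 fold changes of the list. Of 5 tested, 3 were lower (60%, against 26.8% of all genes tested) and 1 higher (20%, against 25.1%). Cryab, αB-crystallin, a chaperone of intermediate filaments in lens and muscle, was at 6.07, 2.57 and 4.69 CPM in Vgll3-labelled libraries, against 26.6, 49.4, 34.6 and 31.4 CPM in Ccne1-labelled ones. The groups were well separated, and Cryab was 7.89-fold lower (-2.98 ± 0.34 on the log2 scale, with SE; edgeR adjusted p = 0.000327). Cryab overlaps Hspb2 on the opposite strand (chr9:50751325-50756636 and chr9:50751078-50752354, mm10). The labels do not say whether the counting used strand, so reads from the stretch that the pair shares cannot be told apart. Hspb7, a small heat shock protein of heart and muscle named here after its values were seen, was at 0.407, 0.491 and 0.469 CPM in Vgll3-labelled libraries, against 1.27, 2.48, 2.42 and 1.02 CPM in Ccne1-labelled ones. These were 19, 13 and 14 counts in Vgll3-labelled libraries and 28, 129, 78 and 28 counts in Ccne1-labelled ones. Hspb7 was 3.97-fold lower with no overlap (-1.99 ± 0.43 on the log2 scale, with SE; edgeR adjusted p = 0.00431).

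Hspb1, HSP27, an inducible chaperone linked to actin, had 20, 7 and 0 counts in Vgll3-labelled libraries and 46, 103, 39 and 9 counts in Ccne1-labelled ones, or 0.429, 0.264 and 0 CPM in Vgll3-labelled libraries, against 2.09, 1.98, 1.21 and 0.327 CPM in Ccne1-labelled ones. A count of 0 in Vgll3-labelled replicate 3 allows up to 0.100 CPM (3 counts, for counting error). Hspb1 was called lower (-2.53 ± 0.93 on the log2 scale, with SE; edgeR adjusted p = 0.0487), but the groups overlapped and the call was lost in 9 of 14 other settings, at edgeR or limma adjusted p up to 0.117. Hspb6, HSP20, known from smooth muscle, was higher at 38.7, 33.3 and 48.2 CPM in Vgll3-labelled libraries, against 29.4, 31.4, 34.9 and 28.5 CPM in Ccne1-labelled ones, with an overlap (0.37 ± 0.13 on the log2 scale, with SE; edgeR adjusted p = 0.0381). The Hspb6 call was lost without Vgll3-labelled replicate 1 or 3 or Ccne1-labelled replicate 1, 2 or 4, at edgeR adjusted p up to 0.110. It was also lost with the replicate number as a block. Hspb8, a partner of Bag3 in autophagy, was at 129, 118 and 121 CPM in Vgll3-labelled libraries, against 116, 144, 131 and 139.9 CPM in Ccne1-labelled ones and was not called (-0.12 ± 0.09 on the log2 scale, with SE; edgeR adjusted p = 0.279).

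Cryab, Hspb2, Hspb6 and Hspb7 are known from muscle, and markers of muscle fibres were low in both groups. Of 11 markers, 5 were tested, 1 was called higher and 1 lower. Myh2 was at 0 in every library. Acta1, the actin of skeletal muscle, was at 0.386, 0.227 and 0 CPM in Vgll3-labelled libraries, against 3.82, 4.02, 2.57 and 2.80 CPM in Ccne1-labelled ones, and was lower (-3.91 ± 0.72 on the log2 scale, with SE; edgeR adjusted p = 0.00200). Tnni2, a troponin of fast muscle, was at 0.579, 0.416 and 0.870 CPM in Vgll3-labelled libraries, against 0.0455, 0.0385, 0.279 and 0.109 CPM in Ccne1-labelled ones, and was higher (2.38 ± 0.69 on the log2 scale, with SE; edgeR adjusted p = 0.0183). Mylpf, Tnnt3 and Ttn were not called, so the muscle markers did not move one way. The part of muscle RNA in these values was not tested.

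**Figure D2:**
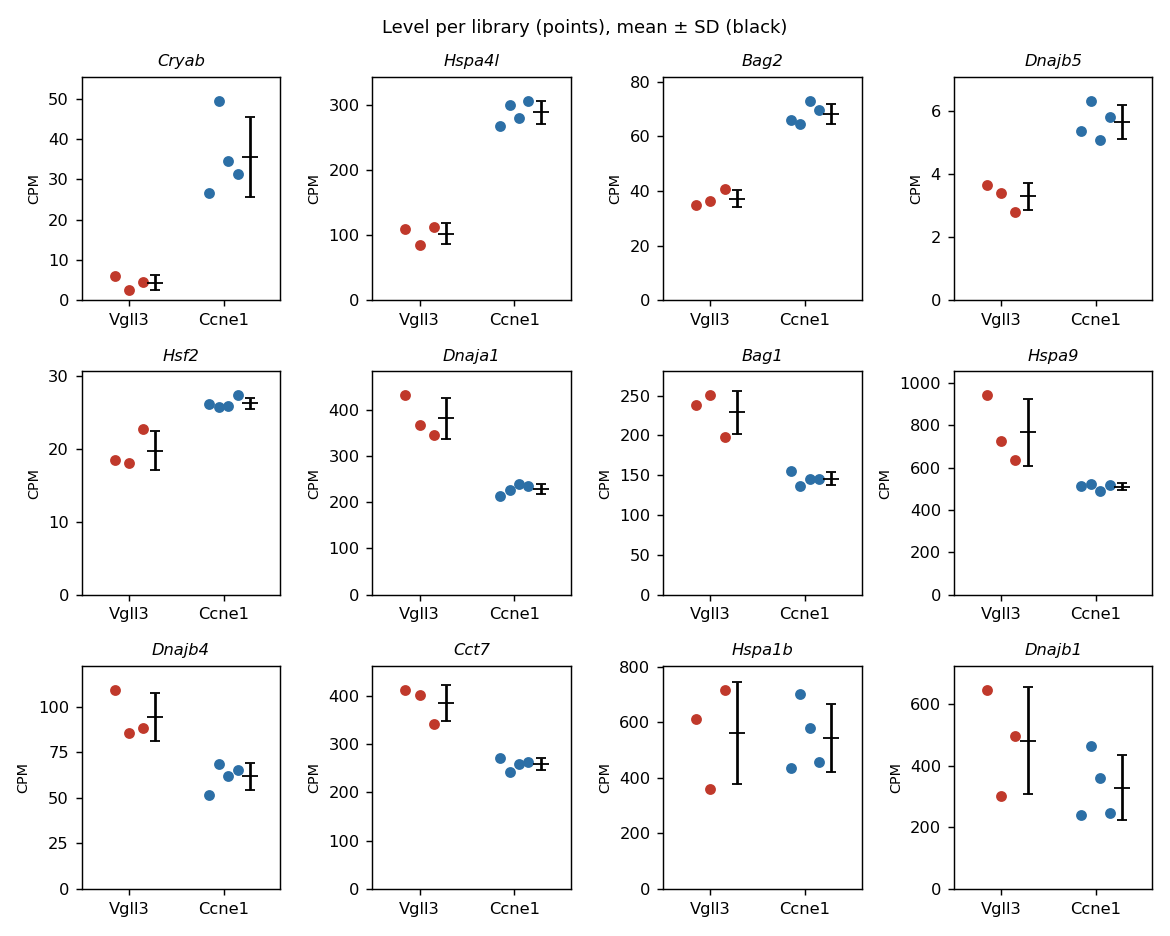
CPM in each library (points) with the mean and SD (black) for 12 members, Vgll3-labelled (n = 3, red) left and Ccne1-labelled (n = 4, blue) right. Cryab, Hspa4l, Bag2, Dnajb5 and Hsf2 were lower and Dnaja1, Bag1, Hspa9, Dnajb4 and Cct7 higher in the Vgll3-labelled libraries, while the groups overlap for Hspa1b and Dnajb1.

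Of the 4 mitochondrial chaperones, 2 were higher (50%, against 25.1% of all genes tested) and 0 lower (against 26.8%). Hspa9, mortalin, the HSP70 of the mitochondrial matrix, was at 942, 727 and 634 CPM in Vgll3-labelled libraries, against 511, 525, 489 and 519 CPM in Ccne1-labelled ones. The groups did not overlap, and Vgll3-labelled replicate 1 was the highest (0.59 ± 0.12 on the log2 scale, with SE; edgeR adjusted p = 0.00375). Hspd1, HSP60, the matrix chaperonin, was at 524, 513 and 405 CPM in Vgll3-labelled libraries, against 396, 356, 365 and 399 CPM in Ccne1-labelled ones, also without overlap (0.34 ± 0.10 on the log2 scale, with SE; edgeR adjusted p = 0.0198). The Hspd1 call was lost without Vgll3-labelled replicate 1 or 2 or Ccne1-labelled replicate 3, at edgeR adjusted p up to 0.0838. It was also lost with the replicate number as a block. Hspe1, HSP10, which caps Hspd1 and shares the stretch printed above, was not called (0.23 ± 0.09 on the log2 scale, with SE; edgeR adjusted p = 0.0644). The ratio of Hspd1 to Hspe1 per length was 1.69, 1.65 and 1.56 in Vgll3-labelled libraries and 1.46, 1.36, 1.65 and 1.64 in Ccne1-labelled ones, with an overlap. Trap1, the mitochondrial HSP90, was not called, though its groups did not overlap (-0.11 ± 0.06 on the log2 scale, with SE; edgeR adjusted p = 0.148).

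Among the J-domain proteins, which hand clients to HSP70, 2 of 7 were higher (28.6%) and 3 lower (42.9%). The shares over all genes tested were 25.1% and 26.8%. Dnaja1 was at 431, 368 and 345 CPM in Vgll3-labelled libraries, against 214, 226, 239 and 234 CPM in Ccne1-labelled ones. No libraries overlapped, and it was 1.67-fold higher (0.74 ± 0.09 on the log2 scale, with SE; edgeR adjusted p = 0.000188). Its relative Dnaja2 was not called (-0.15 ± 0.11 on the log2 scale, with SE; edgeR adjusted p = 0.290), and the ratio of Dnaja1 to Dnaja2 per length was 1.22, 1.08 and 1.28 in Vgll3-labelled libraries and 0.682, 0.633, 0.660 and 0.606 in Ccne1-labelled ones. Dnajb4 was at 109.5, 85.7 and 88.4 CPM in Vgll3-labelled libraries, against 51.4, 68.4, 62.0 and 65.4 CPM in Ccne1-labelled ones, higher without overlap (0.61 ± 0.12 on the log2 scale, with SE; edgeR adjusted p = 0.00238). Dnajb1, the heat-inducible partner of Hspa1a and Hspa1b, was at 648, 303 and 497 CPM in Vgll3-labelled libraries, against 242, 464, 361 and 248 CPM in Ccne1-labelled ones. The groups overlapped, with 2.14 times between its highest and lowest Vgll3-labelled library, and Dnajb1 was not called (0.55 ± 0.33 on the log2 scale, with SE; edgeR adjusted p = 0.195).

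The lower J-domain genes were Dnajb5, Dnajb6 and Dnajb2, and their groups did not overlap. Dnajb5 was at 3.67, 3.40 and 2.81 CPM in Vgll3-labelled libraries, against 5.37, 6.31, 5.08 and 5.81 CPM in Ccne1-labelled ones, 1.71-fold lower (-0.78 ± 0.17 on the log2 scale, with SE; edgeR adjusted p = 0.00489). Dnajb6, known to hold back polyglutamine aggregates and printed above for its 3-unit motif, was at 124, 112 and 95.8 CPM in Vgll3-labelled libraries, against 134, 145, 147 and 145 CPM in Ccne1-labelled ones (-0.37 ± 0.09 on the log2 scale, with SE; edgeR adjusted p = 0.00917). Dnajb2 was lower too (-0.22 ± 0.07 on the log2 scale, with SE; edgeR adjusted p = 0.0223). Its call was lost under upper-quartile scaling, with no filter on low counts and without Vgll3-labelled replicate 2, at edgeR adjusted p up to 0.121. The Dnajb2 call was also lost with the replicate number as a block, at edgeR adjusted p of 0.142.

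The BAG proteins, which make HSP70 let go of its client, split in direction. Bag1, which couples HSP70 to the proteasome, was at 238, 250.5 and 199 CPM in Vgll3-labelled libraries, against 155, 136, 146 and 146 CPM in Ccne1-labelled ones. It was 1.57-fold higher without overlap (0.65 ± 0.09 on the log2 scale, with SE; edgeR adjusted p = 0.000411). Bag2, which inhibits the ubiquitin ligase CHIP, was at 34.8, 36.3 and 40.6 CPM in Vgll3-labelled libraries, against 66.2, 64.6, 72.9 and 69.5 CPM in Ccne1-labelled ones. All Vgll3-labelled libraries were below all Ccne1-labelled ones, and Bag2 was 1.83-fold lower (-0.87 ± 0.08 on the log2 scale, with SE; edgeR adjusted p = 4.54e-05). The ratio of Bag1 to Bag2 per length was 11.9, 12.0 and 8.52 in Vgll3-labelled libraries and 4.09, 3.68, 3.48 and 3.65 in Ccne1-labelled ones. Bag3, inducible by heat and linked to autophagy, was at 229.7, 187 and 256 CPM in Vgll3-labelled libraries, against 152, 189.6, 174 and 155 CPM in Ccne1-labelled ones. Vgll3-labelled replicate 2 lay inside the Ccne1-labelled range, and Bag3 was called higher (0.42 ± 0.12 on the log2 scale, with SE; edgeR adjusted p = 0.0166). The HSP90 cochaperones Stip1, Ahsa1 and Chordc1 were not called, at log2 fold changes of 0.01, 0.16 and 0.24.

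The 7 TRiC/CCT subunits differed in direction, with 3 higher (42.9%) and 2 lower (28.6%), against 25.1% and 26.8% of all genes tested. Cct7 was at 413, 401 and 342 CPM in Vgll3-labelled libraries, against 272, 243, 259 and 263 CPM in Ccne1-labelled ones. It was 1.49-fold higher without overlap (0.57 ± 0.08 on the log2 scale, with SE; edgeR adjusted p = 0.000551). Cct5 was at 553, 524 and 413 CPM in Vgll3-labelled libraries, against 399, 371, 387 and 394 CPM in Ccne1-labelled ones, also without overlap (0.36 ± 0.10 on the log2 scale, with SE; edgeR adjusted p = 0.0169). Its call was lost without Vgll3-labelled replicate 1 or 2, at edgeR adjusted p up to 0.0700. The Cct5 call was also lost with the replicate number as a block, at edgeR adjusted p of 0.0793. Cct4 was at 238, 238 and 195 CPM in Vgll3-labelled libraries, against 272, 302, 279.9 and 279 CPM in Ccne1-labelled ones, lower without overlap (-0.34 ± 0.09 on the log2 scale, with SE; edgeR adjusted p = 0.0117). Tcp1 was at 339, 319.6 and 271 CPM in Vgll3-labelled libraries, against 362, 367, 353 and 393 CPM in Ccne1-labelled ones, lower without overlap (-0.25 ± 0.09 on the log2 scale, with SE; edgeR adjusted p = 0.0432). Leaving aside the replicate block, the Tcp1 call was lost in 9 of 13 other settings, under other scalings and without any one of 6 of the 7 libraries, at edgeR adjusted p up to 0.124.

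Cct8 was higher with an overlap (0.32 ± 0.11 on the log2 scale, with SE; edgeR adjusted p = 0.0384). Its call was lost with no filter on low counts, without Vgll3-labelled replicate 1 or 2 and without Ccne1-labelled replicate 2, 3 or 4, at edgeR adjusted p up to 0.141. The Cct8 call was also lost with the replicate number as a block. Cct2 and Cct3 were not called, at log2 fold changes of 0.20 and 0.01. The summed level per length of these 7 genes was divided into shares, which must add up to 100%. Cct7 held a share of 14.3% ± 0.284 in Vgll3-labelled libraries and 10.7% ± 0.305 in Ccne1-labelled ones (mean and SD). Cct4 held 8.13% ± 0.200 in Vgll3-labelled libraries and 11.4% ± 0.758 in Ccne1-labelled ones, and Tcp1 held 11.4% ± 0.0800 in Vgll3-labelled libraries and 15.1% ± 0.628 in Ccne1-labelled ones. The highest subunit was 2.84 to 3.11 times the lowest in Vgll3-labelled libraries and 2.01 to 2.23 times in Ccne1-labelled ones. Cct6a, a ring subunit outside the list, was not called (0.22 ± 0.10 on the log2 scale, with SE; edgeR adjusted p = 0.0854).

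**Figure D3:**
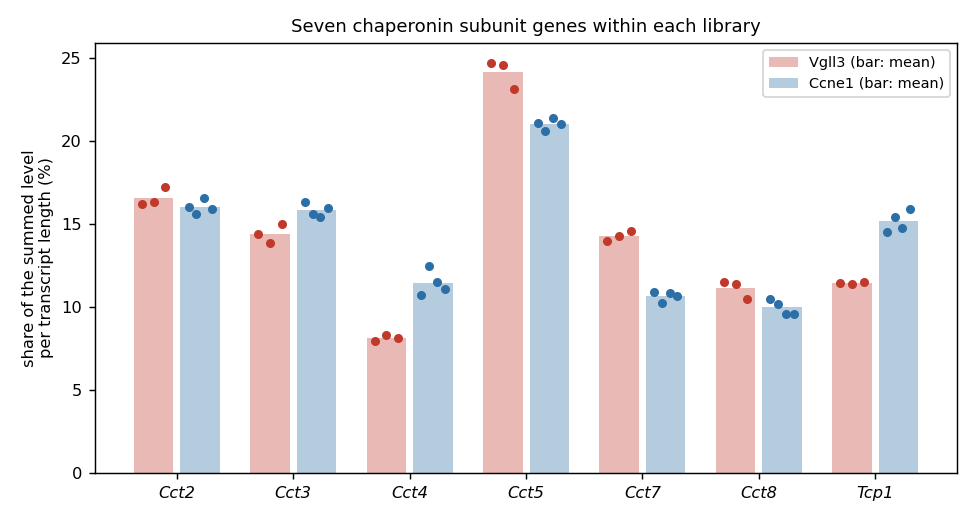
Share of the summed level per transcript length (%) of 7 chaperonin subunit genes in each library (points), with the group mean (bars), Vgll3-labelled (n = 3, red) left of Ccne1-labelled (n = 4, blue). In every Vgll3-labelled library Cct7 held a larger share, and Cct4 and Tcp1 smaller shares, than in any Ccne1-labelled one.

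Libraries of the same group differed in the heat-inducible members. Hspa1b, Hsph1, Hsp90aa1, Dnajb1 and Bag3 were picked after their values were seen, so the order they share describes the choice. Vgll3-labelled replicate 2 was the lowest of its group in 5 of 5, Ccne1-labelled replicate 2 the highest of its group in 5 of 5, and Ccne1-labelled replicate 1 the lowest in 5 of 5. Over all 44 members, these libraries held the same places in 14, 17 and 15. The inducible Hspa1a and Hspb1, not among the 5, were lowest in Ccne1-labelled replicate 4, and Hspb1 was lowest in Vgll3-labelled replicate 3 and highest in Ccne1-labelled replicate 1. In the other places Hspa1a was like the 5, lowest in Vgll3-labelled replicate 2 and highest in Ccne1-labelled replicate 2. Cryab, Dnajb4 and Hspb8, also not among the 5, had the same libraries in all of these places. Of 13 immediate-early genes, known to be induced when tissue is taken apart, Vgll3-labelled replicate 2 was lowest of its group in 11, Ccne1-labelled replicate 2 highest in 11, and Ccne1-labelled replicate 1 lowest in 10. The 13 genes summed to 16385, 12469 and 15238 CPM in Vgll3-labelled libraries and 11348, 14713, 12820.4 and 12350.3 CPM in Ccne1-labelled ones. The part of cell handling in the levels of the inducible members was not tested. Between the groups, 3 immediate-early genes were higher (23.1%, against 25.1% of all genes tested), with Egr1 at a log2 fold change of 2.91 and Ier2 at 0.91. A further 4 were lower (30.8%, against 26.8% of all genes tested), with Ier3 at -2.46 and Dusp1 at -1.02.

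**Figure D4:**
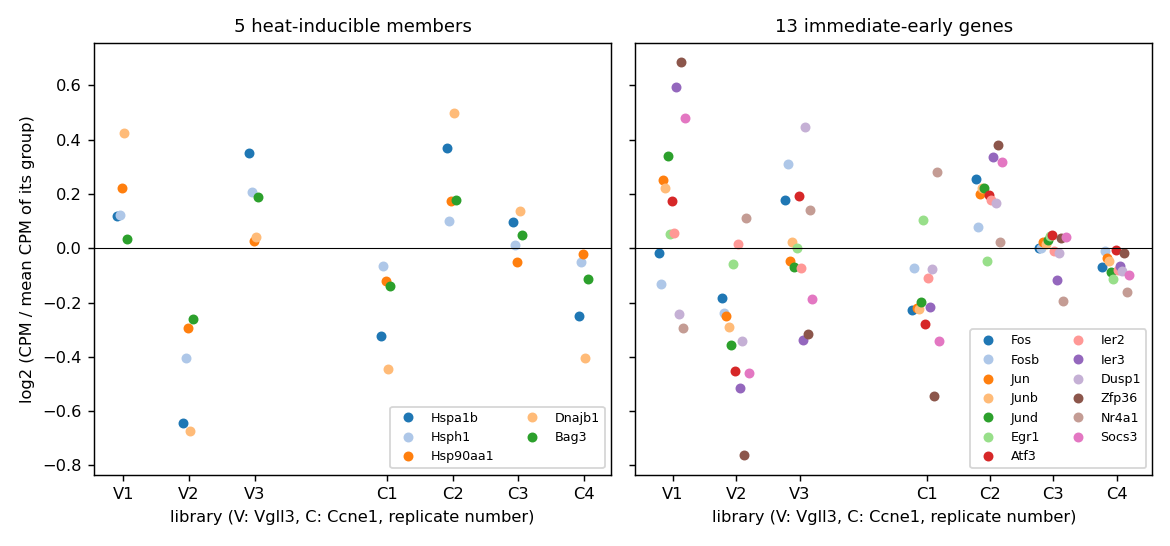
Level in each library relative to its group mean, as log2 of CPM over mean CPM, for 5 heat-inducible members (left) and 13 immediate-early genes (right). V1 to V3 are Vgll3-labelled and C1 to C4 Ccne1-labelled libraries; the 5 members, picked for this order, are lowest in V2 and in C1 and highest of their group in C2.

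Other genes of the chaperone network were counted from lists drawn up with earlier results of these data known. Of 17 HSP90 cochaperones outside the 44 genes, 10 were higher and 0 lower, with a median log2 fold change of 0.30. The share called higher was 58.8%, against 25.1% of all genes tested. Ruvbl1, an ATPase of the R2TP complex, averaged 78.8 ± 9.03 CPM in Vgll3-labelled libraries and 42.1 ± 4.28 CPM in Ccne1-labelled ones (0.91 ± 0.11 on the log2 scale, with SE; edgeR adjusted p = 0.000150). Fkbp5, a cochaperone of steroid receptors, averaged 85.8 ± 10.5 CPM in Vgll3-labelled libraries and 51.7 ± 3.33 CPM in Ccne1-labelled ones (0.73 ± 0.10 on the log2 scale, with SE; edgeR adjusted p = 0.000282). Of 12 endoplasmic reticulum chaperones, 1 was higher and 8 lower, with a median of -0.30. The share called lower was 66.7%, against 26.8% of all genes tested. The J-domain proteins Dnajb11 and Dnajb9 were lowest. Dnajb11 averaged 76.7 ± 6.24 CPM in Vgll3-labelled libraries and 122 ± 3.87 CPM in Ccne1-labelled ones (-0.67 ± 0.07 on the log2 scale, with SE; edgeR adjusted p = 0.000116), and Dnajb9 averaged 37.7 ± 9.22 CPM in Vgll3-labelled libraries and 64.8 ± 3.80 CPM in Ccne1-labelled ones (-0.78 ± 0.14 on the log2 scale, with SE; edgeR adjusted p = 0.00197). Pdia4, a disulphide isomerase, was the one higher (0.47 ± 0.10 on the log2 scale, with SE; edgeR adjusted p = 0.00468). Errors beside means are SD with n = 3 and n = 4.

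Over all genes tested, 25.1% were called higher and 26.8% lower. Among 18 tested HSP70 cochaperones and further J-domain genes, 3 were higher (16.7%) and 7 lower (38.9%). On the log2 scale, Dnajc27 (1.07) and Dnajc8 (0.66) were the most raised, and the exchange factors Bag4 (-0.55) and Bag5 (-0.50) the most lowered. Of 11 chaperonin partners, 2 were higher (18.2%) and 3 lower (27.3%). Cct6b (3.08), a testis subunit of the ring, and Pfdn1 (0.52), of prefoldin, were raised, while Pdcl3 (-0.67) and Pfdn6 (-0.52) were the most lowered. Cct6b was low, with 58, 39 and 13 counts in Vgll3-labelled libraries and 2, 5, 5 and 4 counts in Ccne1-labelled ones, and an SE of 0.55. Of 12 further mitochondrial folding and proteolysis genes, 2 were higher (16.7%) and 4 lower (33.3%). Clpb (0.33) and Dnajc19 (0.29) were raised, and Clpx (-1.09) and the protease gene Lonp1 (-0.55) were the most lowered. Of 5 further family members tested, 3 were higher (60%) and 0 lower. Hsf4, a heat shock factor of the lens, averaged 4.72 ± 0.957 CPM in Vgll3-labelled libraries and 0.649 ± 0.156 CPM in Ccne1-labelled ones (2.85 ± 0.28 on the log2 scale, with SE; edgeR adjusted p = 6.56e-05). Hspb11 had a log2 fold change of 0.66.

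Several members moved the way most called genes of their chromosome did. On chromosome 4 the median log2 fold change of 829 tested genes was 0.44, with 467 higher and 71 lower. Dnaja1 and Bag1, both higher, lie there (chr4:40722150-40737149 and chr4:40936398-40948294). Chromosome 6, with Cct7, had a median of 0.39, and chromosome 18, with Hspa9, of 0.29. Chromosome 17, with Hsp90ab1 and Tcp1, had a median of -0.33, and chromosome 11, with Cct4, of -0.30, and these members were lower. Within 1 Mb of the start of Dnaja1, 17 of 27 other tested genes were higher and 1 lower. Within 1 Mb of the start of Hsp90ab1, 1 of 28 was higher and 17 lower. Dnajb5 and Hspb7, both lower, lie on chromosome 4 too. Cryab lies on chromosome 9, which had a median of 0.03. Of the HSP90 cochaperones called higher, Ruvbl1 and Fkbp4 lie on chromosome 6, and Nudc and Ttc4 on chromosome 4. The others lie on chromosomes 1, 2, 7, 9 and 17, with medians from -0.33 to 0.05. Of 22 other tested genes within 1 Mb of the start of Ruvbl1, 16 were higher and 0 lower. DNA copy number was not analysed here, and its part in these genes was not tested.

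**Figure D5:**
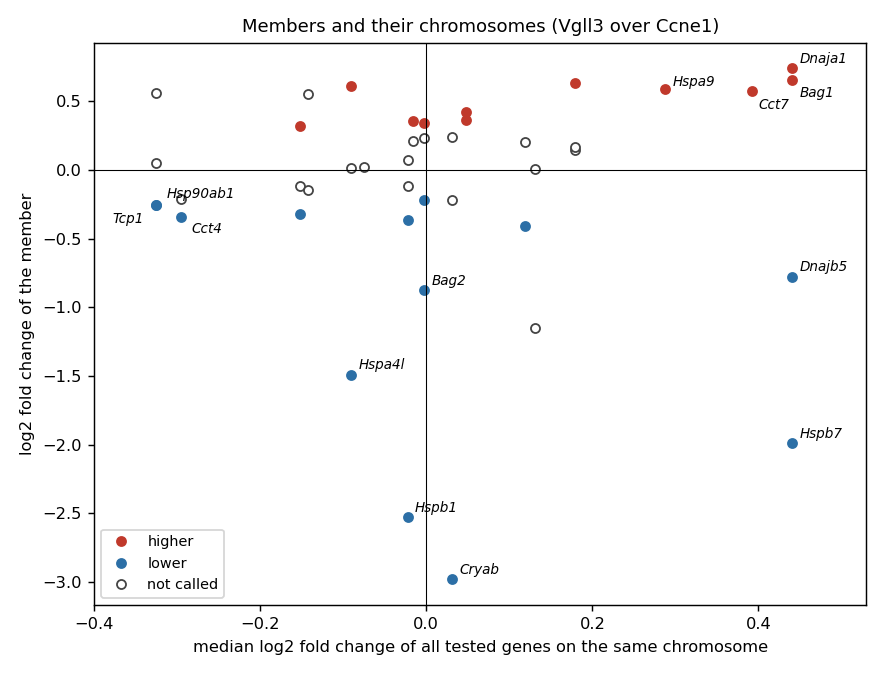
Log2 fold change of each of 43 tested members (vertical) against the median log2 fold change of all tested genes on its chromosome (horizontal), Vgll3-labelled over Ccne1-labelled libraries. Dnaja1, Bag1, Cct7 and Hspa9 lie on chromosomes with medians of 0.29 to 0.44, and Hsp90ab1, Tcp1 and Cct4 on chromosomes with medians of -0.33 and -0.30.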

How the data were processed

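The sample titles gave the group and replicate number of the 3 Vgll3-labelled and 4 Ccne1-labelled libraries. The authors deposited estimated counts per Ensembl gene, made with Salmon on mm10 per the submitters' processing notes, with version, annotation and strand setting not given in the sources used here. Of the estimated counts as deposited, 0 needed rounding, and 0 columns were left unmapped. Symbols and coordinates for 35493 genes came from GENCODE M21 on the same build (GRCm38).

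Genes were tested in edgeR 4.0.16 under R 4.3.3 with filterByExpr, TMM and robust quasi-likelihood F tests, with Benjamini-Hochberg adjustment over 13740 genes. The SE is the absolute log2 fold change over the square root of F. The fit was also run on simulated counts with few changed genes and the same spread for every gene. In the data 51.9% of genes were called, so that run cannot show how the fit performs here. Levels per length divide CPM by the length of 1 principal coding transcript per gene and depend on that choice. No library was counted as a repeat of another: within a group, the chi-square of a pair over its degrees of freedom was 12.4 to 96.3. The limit set by a count of 0, taken as 3 counts, was 0.0560 to 0.138 CPM and covers counting error only.

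The 44 members, the lists and the rule for naming genes were chosen with earlier results of these data known. The rule named 10 inducible or constitutive members, in each role up to 2 called members at either end of the fold changes and the most abundant one, and in each further list up to 2 called genes at either end. Alternatives were other scalings, tests and filters, a non-robust fit, each library left out, the replicate number as a block, and Hspa1a and Hspa1b summed, with DESeq2 1.42.0 and limma 3.58.1.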

Additional observations from a re-analysis of the deposited data

How the results depend on the processing

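Of 24 called members, 10 kept their call in every setting (Hspa4l, Hspb7, Cryab, Hspa9, Dnaja1, Dnajb4, Dnajb5, Bag1, Bag2 and Cct7), 14 lost it in at least 1, and 0 changed sign. Members called higher numbered 8 to 12 and lower 9 to 14 when each library was left out, and all genes called 6023 to 7334. Upper-quartile scaling gave 15 higher and 8 lower, DESeq2 12 and 13, and limma-voom 11 and 13. The replicate numbers do not pair the libraries: same-numbered libraries correlated at -0.15, -0.17 and -0.10 in their deviations from the group means, and no library correlated best with its own number. With the replicate block, 5 members were higher and 6 lower, and 4841 genes were called in all. The block left fewer degrees of freedom for the spread. Ccne1-labelled replicate 4, which has no partner of its number, added nothing to the group comparison with the block. Of the called members, 13 lost their call with the block. Hsf2, Hspa2, Dnajb6, Bag3 and Cct4 lost it in this setting alone. Hspa13, Hsp90ab1, Hspb6, Hspd1, Dnajb2, Cct5, Cct8 and Tcp1 lost it here and in other settings, with Hsp90ab1 and Tcp1 at edgeR adjusted p of 0.152 and 0.172. Of 12 endoplasmic reticulum chaperones, 6 to 8 were lower in the other settings and 4 with the block. Of 17 HSP90 cochaperones, 7 to 11 were higher in the other settings and 7 with the block, and of the HSP70 cochaperones and further J-domain genes, 5 to 8 were lower in the other settings and 4 with the block. Of the uncalled members, 8 were called in at least 1 setting: Hsf1, Hspa4, Hspa8, Hspa12a, Hspe1, Ahsa1, Chordc1 and Cct2. Hsf1 was called higher under upper-quartile scaling and without Vgll3-labelled replicate 1, and Hspa8 lower without that replicate. Cct2 was called higher in 4 settings: the other scalings, DESeq2, and without Vgll3-labelled replicate 3. Direction turned only for 6 uncalled members. Under the replicate block the log2 fold change was -0.0454 for Hspa1a and -0.0464 for Hspa1b, and with no filter on low counts it was -0.0011 for Stip1. With libraries left out in turn it ran from -0.56 to 0.90 for Hspa1a, -0.15 to 0.28 for Hspa1b, -0.0623 to 0.0892 for Hspa14, -0.0338 to 0.23 for Hsph1, -0.0551 to 0.0455 for Stip1 and -0.0595 to 0.0881 for Cct3. The cause of these changes was not tested. Depth limits Hspb1, Hspb2, Hspb7 and Hspa12a, and Cct6b outside the list, which had few counts.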
